A study of Oryza sativa with 16 samples.

Results

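Phytoene synthase joins a pair of geranylgeranyl diphosphate molecules into phytoene, the committed step of carotenoid synthesis in plastids. Carotenoids protect the photosynthetic apparatus, and their cleavage products include abscisic acid, the hormone that closes stomata and switches on protective genes when a plant loses water. Grasses carry several phytoene synthase genes. In rice PSY1 and PSY2 are known as the copies that serve green tissue, and PSY3 as the copy linked to abscisic acid formation under stress, above all in roots.

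PSY1, PSY2 and PSY3 were followed on 16 Affymetrix rice genome arrays through all of their probe sets, found by symbol or synonym in the gene annotation of the array. This gave 5 of 57194 probe sets for 3 of 17905 annotated genes. PSY1 (gene ID 4342137) had 3 probe sets, Os.7931.1.S1_s_at, Os.7931.1.S1_a_at and Os.37287.1.S1_at. PSY2 (gene ID 4352846) was measured by Os.10025.1.S1_a_at alone and PSY3 (gene ID 4347813) by Os.22278.1.S1_at alone. The brightest probe set over all arrays, Os.7931.1.S1_s_at for PSY1, stands for its gene below. Its ending, _s_at, marks probes that match more than 1 transcript, so its signal may not come from PSY1 alone.

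The arrays held RNA, labelled as leaf, from hydroponic seedlings of 2 weeks, with 2 arrays for each of 8 groups. Salt sensitive VSR156 and salt tolerant CSR11 were compared with and without 50 mM NaCl, and drought sensitive IR64 and drought tolerant Vandana with and without drought, which meant seedlings kept out of the medium. The labels give 24 h of stress, whereas the paper's methods describe a stronger salt treatment and a shorter drought, and name shoots as well as leaves. A figure legend of the paper names whole plants, so the tissue is not certain. Each group has an array A and an array B, and no source used here ties them to separate plants, so p-values measure only the spread between these arrays, which may be technical.

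Deposited intensities differed in overall level between arrays. Array means ran from 9.16 to 132.9 in the salt experiment and from 99.8 to 230.5 in the drought experiment, and the dimmest array was CSR11 salt B. Unless stated otherwise, values below are log2(intensity + 16) after quantile normalization, on which dim probe sets show smaller changes than they underwent. A probe set counted as called, up or down, where the limma p adjusted by Benjamini-Hochberg over all 57194 probe sets was under 0.05, together with a log2 change of at least 1 in size. Bright transcripts of leaves, RBCS, CAB2R and RCA, which encode a Rubisco subunit, a chlorophyll-binding protein and Rubisco activase, lay near the top of every array, and limma called 0 of the 3 on its brightest probe set in any stress comparison (at most 2 at an unadjusted p under 0.05). Quantile normalization gives every array the same top values, so these genes had little room to change and the counts do not show a constant leaf content. With values as deposited their median change was -0.55 in VSR156, -1.33 in CSR11, -0.28 in IR64 and -1.07 in Vandana, with 0 called.

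The labels of the drought experiment need a caution before any result. Between the controls of IR64 and Vandana, 206 probe sets were at least 3 log2 units apart, PSY3 among them. In 88.3% of these the arrays labelled Vandana drought lay nearer to the IR64 control than to the Vandana control, which is their own. This held for 82.7% of the 139 probe sets that were higher in the IR64 control and 100% of the 67 that were lower. The arrays labelled IR64 drought lay nearer to their own control, that of IR64, in 60.7%, with 74.1% of the 139 probe sets that were higher in the IR64 control and 32.8% of the 67 that were lower. PSY3 values are therefore also given below with the controls exchanged. Whether arrays carry the wrong label was not tested.

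PSY3 had the widest range of the family members over the 8 groups, and most of that range lay inside the drought experiment. On Vandana control arrays A and B it read 6.52 and 6.71, and on Vandana drought arrays 9.88 and 10.00. The drought values lay far above the controls, with no overlap. PSY3 rose by 3.33 log2 units (SE 0.15, 95% confidence interval 2.999 to 3.659, adjusted p = 4.1e-08 from limma). In the deposited intensities the control arrays read 81.3 and 200.3 and the drought arrays 1076 and 1064.

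In IR64 the same probe set was bright on every array. Control arrays read 9.86 and 9.93 and drought arrays 10.05 and 10.28, so the drought values were higher without overlap but by little. The difference of 0.28 (95% confidence interval -0.05 to 0.61, adjusted p = 0.331) did not pass the test. The drought response of IR64 was lower than that of Vandana by 3.05 log2 units (-3.05, SE 0.21, adjusted p = 4.33e-06, tested as an interaction), which with values as deposited became -2.40 (adjusted p = 0.0986).

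The 2 varieties differed as much without stress. PSY3 in unstressed IR64 exceeded unstressed Vandana by 3.28 log2 units (SE 0.15, adjusted p = 1.32e-07), and the unstressed IR64 level of 9.89 lay beside the Vandana drought level of 9.94. Set against the Vandana control, IR64 drought was higher by 3.55 (adjusted p = 3.38e-08). Set against the IR64 control, Vandana drought differed by 0.05 (95% confidence interval -0.28 to 0.38, adjusted p = 0.953). PSY3 thus separated the Vandana control from the other 3 groups of the experiment, whichever control was used.

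In the salt experiment PSY3 stayed at the low end of its range. VSR156 control arrays read 5.88 and 5.85 and salt arrays 6.56 and 6.73, a difference of 0.78 (SE 0.15, adjusted p = 0.00384) that stayed under the fold threshold and turned to -1.27 with values as deposited and -0.72 with arrays centred on their median. CSR11 control arrays read 5.95 and 5.98 and salt arrays 5.16 and 5.59, a difference of -0.59 (adjusted p = 0.0213). Under 7 other settings it ran from -0.98 to -0.30, with an adjusted p of up to 0.583. Neither response was called. The deposited intensities were 74.4 and 61.4 in the VSR156 control and 22.2 and 15.5 under salt, so the normalization sets the direction in VSR156. In CSR11 they were 24.3 and 53.8 in the control and 20.5 and 3.70 under salt.

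The salt responses of PSY3 were apart by 1.37 log2 units between VSR156 and CSR11 (SE 0.21, adjusted p = 0.00265, interaction). With values as deposited the difference was -0.28 (adjusted p = 0.842), and from the 8 arrays of the salt experiment alone it was 1.17 (adjusted p = 0.0598). Unstressed plants of VSR156 and CSR11 differed by -0.10 (95% confidence interval -0.43 to 0.23, adjusted p = 0.896).

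Ordered by mean, the PSY3 level was 5.37 in CSR11 salt, 5.86 in the VSR156 control, 5.96 in the CSR11 control, 6.61 in the Vandana control, 6.65 in VSR156 salt, 9.89 in the IR64 control, 9.94 in Vandana drought and 10.17 in IR64 drought. A gap of 3.25 log2 units parted the lower 5 groups from the upper 3. Within the upper 3, and between both unstressed salt varieties and between the Vandana control and VSR156 salt, the 95% confidence intervals of neighbours' differences included 0. The salt and drought experiments used different varieties and arrays, so stress, variety and experiment cannot be told apart across them.

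**Figure D1:**
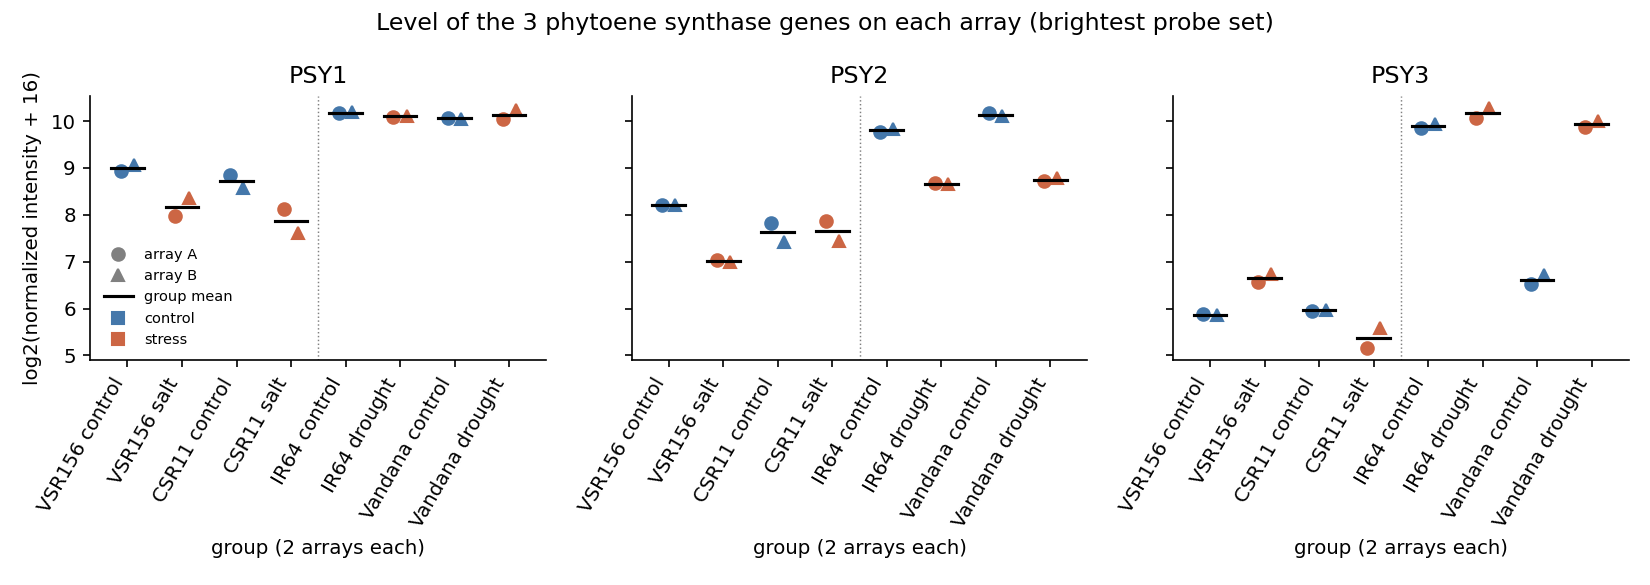
Level of PSY1, PSY2 and PSY3 on each of the 16 arrays as log2(normalized intensity + 16), with 2 arrays for each of 8 groups, arrays A as circles, arrays B as triangles and group means as lines (heights of different genes come from different probes and should not be set against each other). PSY3 sits at 6.52 and 6.71 in the Vandana control and at 9.86 or above in the other drought experiment groups, while PSY2 is lower under stress in VSR156, IR64 and Vandana and overlaps with its control in CSR11, where other scalings give -0.84 or -0.69.

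PSY2 was the family member that fell in most comparisons. In VSR156 the control arrays read 8.21 and 8.21 and the salt arrays 7.04 and 6.99. Both salt values lay more than 1 log2 unit below both controls, and PSY2 fell by 1.20 log2 units (SE 0.15, 95% confidence interval -1.54 to -0.86, adjusted p = 0.000305). The call was kept with every single array left out, between -1.22 and -1.18, but not with a pseudocount of 64, at -0.96.

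In CSR11 PSY2 was not called. Control arrays A and B read 7.84 and 7.43 and salt arrays 7.88 and 7.45, so the groups overlapped almost entirely. The difference was 0.03 (95% confidence interval -0.31 to 0.37, adjusted p = 0.953), yet the deposited values gave -0.84 (adjusted p = 0.843) and centred arrays -0.69 (adjusted p = 0.776), so the scaling sets its size and sign. The response of VSR156 was lower than that of CSR11 by 1.22 log2 units (-1.22, SE 0.22, adjusted p = 0.00576, interaction), a call lost with values as deposited at -2.43 (adjusted p = 0.438) and with the salt experiment alone at -1.10 (adjusted p = 0.102). Without the dim array CSR11 salt B the difference of responses was -1.45 (adjusted p = 0.00153).

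Both drought varieties had lower PSY2 under stress. IR64 control arrays read 9.77 and 9.84 and drought arrays 8.69 and 8.65, and PSY2 fell by 1.14 log2 units (SE 0.15, adjusted p = 0.000371). Vandana control arrays read 10.17 and 10.11 and drought arrays 8.73 and 8.77, and PSY2 fell by 1.39 log2 units (SE 0.15, adjusted p = 4.24e-05). Control and drought arrays were clearly apart in both. With values as deposited the differences were -0.86 (adjusted p = 0.852) and -1.94 (adjusted p = 0.195), the same direction without a call.

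The PSY2 drought responses of IR64 and Vandana differed by 0.25 (95% confidence interval -0.23 to 0.73, adjusted p = 0.737), and the unstressed plants by -0.33 (95% confidence interval -0.67 to 0.01, adjusted p = 0.281). Unlike PSY3, PSY2 also fell with the controls exchanged, by 1.47 log2 units for IR64 drought against the Vandana control (adjusted p = 3.11e-05) and by 1.06 log2 units for Vandana drought against the IR64 control (adjusted p = 0.000705). Unstressed VSR156 was 0.57 above unstressed CSR11 (adjusted p = 0.0356), under the fold threshold.

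By mean the PSY2 level ran from 7.01 in VSR156 salt over 7.63 in the CSR11 control, 7.66 in CSR11 salt, 8.21 in the VSR156 control, 8.67 in IR64 drought, 8.75 in Vandana drought and 9.81 in the IR64 control to 10.14 in the Vandana control. Confidence intervals of neighbours' differences included 0 between both CSR11 groups, between both drought groups and between the IR64 and Vandana controls.

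PSY1 depended on the probe set. On its brightest probe set drought left little mark. IR64 control arrays read 10.16 and 10.20 and drought arrays 10.09 and 10.11, a difference of -0.08 (95% confidence interval -0.47 to 0.31, adjusted p = 0.922). Vandana control arrays read 10.06 and 10.05 and drought arrays 10.04 and 10.23, a difference of 0.08 (95% confidence interval -0.31 to 0.47, adjusted p = 0.894). These intervals leave room for changes of up to about 0.47 log2 units.

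Under salt the same probe set read lower in both varieties. VSR156 control arrays read 8.94 and 9.06 and salt arrays 7.98 and 8.35, and CSR11 control arrays 8.85 and 8.58 and salt arrays 8.13 and 7.62. All salt values lay below the controls of their variety. The difference was -0.84 in VSR156 (SE 0.18, adjusted p = 0.00696) and -0.84 in CSR11 (SE 0.18, adjusted p = 0.0082), both past the p threshold and short of the fold threshold. Without VSR156 salt B the first reached -1.02 and was called, and without CSR11 salt A the second reached -1.10 and was called. In VSR156 it was also called with arrays centred, at -2.50 (adjusted p = 0.0228), and with values as deposited, at -3.05 (adjusted p = 0.0262). Under these scalings 9664 and 13015 of all 57194 probe sets were called down there. In CSR11 the 8 settings other than leaving out arrays gave -1.62 to -0.16. None of these was called, and the adjusted p rose to as much as 0.671. The salt responses of the varieties differed by 0.00 (95% confidence interval -0.55 to 0.56, adjusted p = 0.997). Under the same other settings this difference ran from -1.43 to 0.01 and was never called.

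The second PSY1 probe set, Os.7931.1.S1_a_at, stems from the same source sequence as the first, so their agreement is no separate support. It followed the first over the 8 group means (r = 0.97, a description over means of the same 16 arrays from both experiments). In VSR156 its control arrays read 7.92 and 8.07 and its salt arrays 6.62 and 7.14. On this probe set PSY1 fell by 1.12 log2 units (SE 0.17, adjusted p = 0.000837), a call lost without VSR156 salt A, at -0.86, with a pseudocount of 64, at -0.87, and with the salt experiment alone, at -0.99. In CSR11 the control arrays read 7.87 and 7.93 and the salt arrays 6.98 and 7.30, a difference of -0.76 (adjusted p = 0.0105) that was not called. Vandana arrays read 9.37 and 9.60 in the control and 8.92 and 8.95 under drought, a difference of -0.55 (adjusted p = 0.0362) that was not called either. In IR64 the values were 9.41 and 9.43 against 9.25 and 9.30.

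The third probe set of PSY1, Os.37287.1.S1_at, was dim and ran against the others, at r = -0.51 with the first and -0.55 with the second over the 8 group means. In CSR11 its control arrays read 5.45 and 5.07 and its salt arrays 5.77 and 6.98. The salt arrays did not agree among themselves, and the call there, at 1.12 (SE 0.31, adjusted p = 0.0298), was lost without CSR11 salt B at 0.53 (adjusted p = 0.148) and without either control array. It was also lost in 6 of 7 other settings, with 0.04 from values as deposited (adjusted p = 1.0) and 0.19 from centred arrays (adjusted p = 0.825). In the other 3 comparisons it was 0.47 in VSR156, 0.49 in IR64 and 0.70 in Vandana, none called. No direction of PSY1 in CSR11 can be given that holds on all 3 probe sets.

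PSY1 levels on the brightest probe set were 7.87 in CSR11 salt, 8.16 in VSR156 salt, 8.72 in the CSR11 control and 9.00 in the VSR156 control. The 4 groups of the drought experiment lay together above them, from 10.06 in the Vandana control over 10.10 in IR64 drought and 10.14 in Vandana drought to 10.18 in the IR64 control, and neighbours among these did not differ beyond their confidence intervals. Unstressed varieties differed by 0.29 between VSR156 and CSR11 (adjusted p = 0.464) and by 0.12 between IR64 and Vandana (adjusted p = 0.901).

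**Figure D2:**
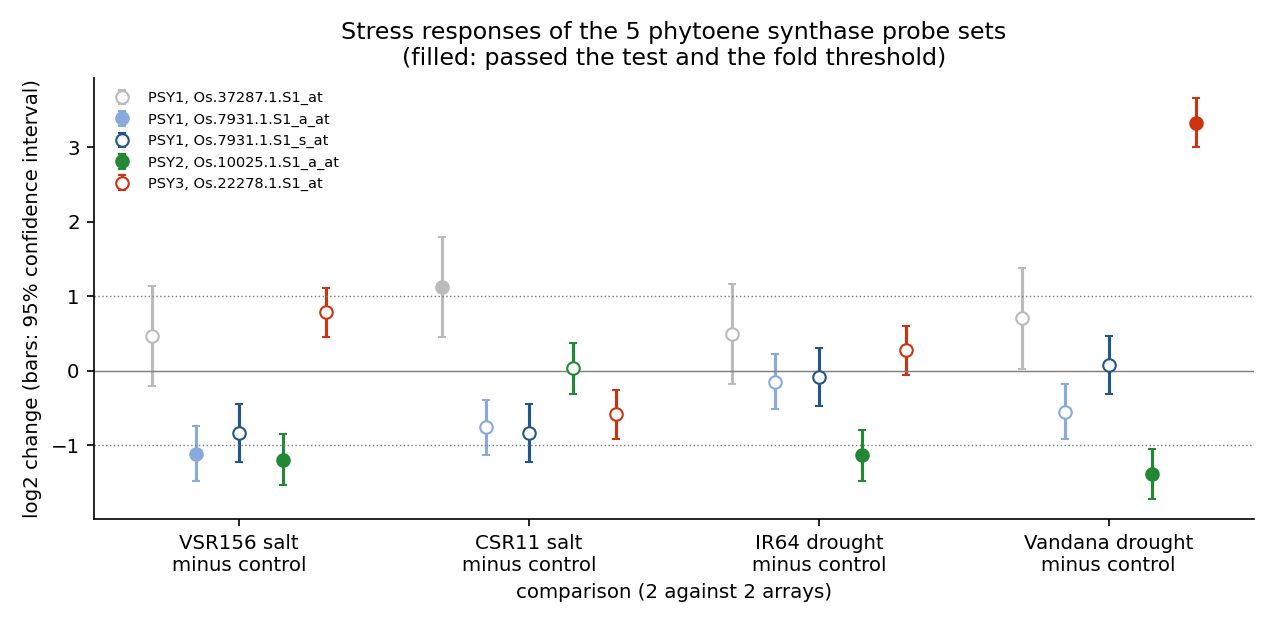
Log2 change of the 5 phytoene synthase probe sets in each stress comparison of 2 against 2 arrays, with 95% confidence intervals, filled where adjusted p was under 0.05 and the change at least 1 in size (dotted lines). PSY3 in Vandana stands at 3.33, PSY2 lies below -1 in 3 of the 4 comparisons, and the PSY1 probe sets point in different directions in CSR11.

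Counted over the 5 probe sets, 2 fell and 0 rose in VSR156, against 7.75% of all probe sets called in that comparison. In CSR11 1 rose and 0 fell, against 6.33%. In IR64 1 fell and 0 rose, against 6.96%, and in Vandana 1 rose and 1 fell, against 11.8%. The difference of salt responses was called for 2 of the 5, against 9.04% of all probe sets, and the difference of drought responses for 1 of the 5, against 7.41%. Unstressed VSR156 and CSR11 differed for 0 of the 5 (1 at an unadjusted p under 0.05), against 4.94%, and unstressed IR64 and Vandana for 1 of the 5, against 4.75%. With the controls exchanged, the shares over all probe sets were 10.4% for IR64 drought and 6.28% for Vandana drought. With 5 probe sets of 3 genes these counts are a description.

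Other signals moved with the salt groups. The GAPDH controls for the 3' and the 5' end of the transcript, whose log2 ratio is larger in degraded RNA, were apart by 6.06 and 5.89 in VSR156 salt against 4.64 and 4.39 in its control, and by 3.25 and 4.60 in CSR11 salt against 2.94 and 2.02. In the drought experiment they were apart by 1.20 and 1.34 in the Vandana control and by 0.49 and 0.60 in Vandana drought. In IR64 the ratio was 0.35 and -0.0004 in the control and 0.46 and 0.49 under drought. The Vandana control, which stood apart for PSY3, thus also had the largest ratios of its experiment. Any part of this in the PSY3 values was not tested. Of 5 listed root markers 3 were measured, the silicon transporters LSI1 and LSI2 and the metal transporter NRAMP5. Their summed normalized intensity was 198.4 to 198.9 in the VSR156 control and 1083 to 1171 in VSR156 salt, but 2113.7 to 2394.5 in the CSR11 control and 911.9 to 1097.1 in CSR11 salt. In the drought experiment it was between 78.2 and 196.6. LSI1 and LSI2 rose in VSR156, by 2.40 and 3.45 log2 units, while in CSR11 LSI1 fell by 1.21 and NRAMP5 fell by 1.79. With values as deposited the median of the 3 was -0.01 in VSR156 and -1.99 in CSR11. Their part in the PSY salt values was not tested. In such bulk samples a change in the make-up of the tissue and a change of RNA per cell cannot be told apart.

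The MEP pathway of plastids supplies the isoprenoid units for phytoene synthase. Of its 12 listed genes 3 were measured, and 2 of these fell in each drought comparison. DXR, its reductoisomerase, fell by 1.44 log2 units in IR64 (adjusted p = 1.96e-05) and by 1.30 in Vandana (adjusted p = 1.98e-05). MCS, which closes the ring of the cyclodiphosphate intermediate, fell under drought by 1.30 in IR64 and 1.56 in Vandana. HDR, the last reductase, was at -0.84 and -0.98 and was not called. Under salt limma called 0 of the 3 in either variety (at an unadjusted p under 0.05, 1 in VSR156 and 2 in CSR11), with DXR at -0.72 in VSR156 and -0.97 in CSR11. With values as deposited 0 of the 3 was called under drought, with a median of -1.03 in IR64 and -1.84 in Vandana, whereas 2 of the 3 fell in VSR156 salt (median -2.40) and 0 in CSR11 salt (median -1.66). With arrays centred 2 of the 3 also fell in VSR156 salt (median -1.85), so for this list neither a drought call nor the lack of a salt call in VSR156 holds under every scaling. Over all 57194 probe sets, 13015 fell in VSR156 salt with values as deposited and 9664 with arrays centred, against 2528 after quantile normalization. In CSR11 salt 13 and 386 fell, against 2268. Under drought 235 in IR64 and 2315 in Vandana fell with values as deposited, against 2257 and 3731. The list counts under other scalings are therefore a description only.

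After phytoene, 2 of 14 listed genes were measured, and their salt values stand beside -0.84 for PSY1 in both varieties. PDS, which desaturates phytoene, fell by 1.13 log2 units in VSR156 (adjusted p = 0.002) and was at -0.97 in CSR11 (adjusted p = 0.00633), -0.27 in IR64 and -0.56 in Vandana. ZEP, the zeaxanthin epoxidase that makes precursors of abscisic acid, fell by 1.15 in CSR11 (adjusted p = 0.00133) and was at -0.79 in VSR156, -0.25 in IR64 and -0.20 in Vandana. Thus 1 of the 2 fell in each salt comparison and by limma 0 of the 2 under drought (at an unadjusted p under 0.05, 0 in IR64 and 1 in Vandana), where the median was -0.26 in IR64 and -0.38 in Vandana. Under each of the other scalings 2 of the 2 fell in VSR156 and neither was called in CSR11. Over all 57194 probe sets, 13015 (as deposited) and 9664 (centred) fell in VSR156, but only 13 and 386 in CSR11. No NCED gene, the family that cleaves carotenoids towards abscisic acid, was matched to a probe set with 1 gene.

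Of the 9 listed genes of abscisic acid synthesis from carotenoids only ABA3 was measured, the sulfurase of the molybdenum cofactor that the last oxidase needs. On its brighter probe set it fell by 1.16 log2 units in VSR156 and by 1.22 in CSR11, whereas the other probe set read 0.30 and -0.50 with no call, and with values as deposited or arrays centred the call in CSR11 was lost, at -1.42 and -1.27. Of 7 genes for other carotenoid cleavage enzymes CCD7 and CCD8A, which act in strigolactone synthesis, were measured. Neither was called by limma in a stress comparison (1 at an unadjusted p under 0.05, in VSR156), with changes between -0.60 and 0.48, though 1 of the 2 was called down in VSR156 under each of the other scalings. Those scalings called 13015 (as deposited) and 9664 (centred) of all 57194 probe sets down in VSR156.

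Of 3 listed genes for the breakdown of abscisic acid, 2 were measured, and in the drought experiment both rose in Vandana, as PSY3 did. The hydroxylase gene ABA8OX2 rose by 3.21 log2 units in Vandana (adjusted p = 5.84e-09) and was at 0.08 in IR64 (adjusted p = 0.833), and ABA8OX1 rose by 2.29 in Vandana and was at 0.75 in IR64. In unstressed plants ABA8OX2 was 3.18 higher in IR64 than in Vandana, a gap close to that of PSY3. Under salt ABA8OX2 rose by 1.62 in VSR156 (adjusted p = 3.5e-06), on a probe set that also ends in _s_at. Its deposited intensities there were 75.1 and 71.9 in the control and lower under salt, at 48.7 and 31.9. With values as deposited its list had a median of -0.88, and 1 of 2 genes, ABA8OX1, was called down, as were 13015 of all 57194 probe sets.

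Genes that answer to abscisic acid, 8 of 9 listed being measured, held members that rose in every comparison. All 8 rose in VSR156 (median 3.11) and 2 in CSR11 (median 0.95), while 6 rose in IR64 (median 1.29) and 7 in Vandana (median 5.15), with the median over all probe sets between 0.00 and 0.02. From the deposited values the counts were 2, 0, 1 and 5. Over all 57194 probe sets 13, 0, 663 and 761 then rose, against 1902, 1353, 1722 and 3005 after quantile normalization. RAB16D, a dehydrin gene, rose by 3.41 in VSR156, 3.44 in CSR11, 3.48 in IR64 and 6.36 in Vandana. In unstressed plants 6 of the 8 were higher in IR64 than in Vandana, with a median of 1.83. PSY3 was not called in VSR156 or IR64, where 8 and 6 of these genes rose. In VSR156 PSY3 was at 0.78 (adjusted p = 0.00384 from limma), short of the fold threshold only, with a sign that followed the scaling. In IR64 its control level was already 9.89, beside 10.17 under drought. The missing calls therefore do not set PSY3 apart from these genes.

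**Figure D3:**
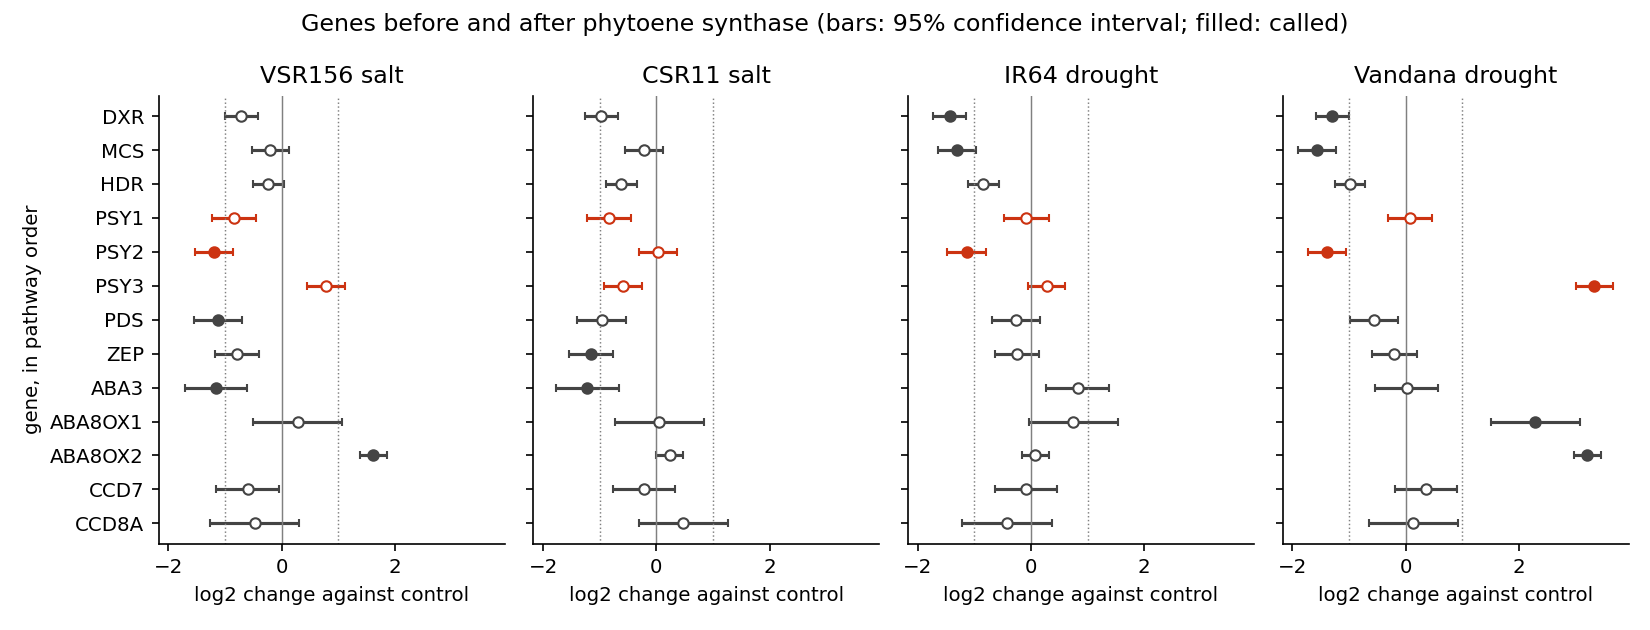
Log2 change against control of genes before phytoene synthase (DXR, MCS, HDR), of the 3 phytoene synthases (red) and of genes after it, in each stress comparison of 2 against 2 arrays, with 95% confidence intervals and filled points for called changes. DXR, MCS and PSY2 are filled below -1 in both drought panels, PSY3 and ABA8OX1 are filled above 1 in the Vandana panel only, and ABA8OX2 is filled above 1 in the Vandana and VSR156 panels.

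The pattern most like that of each phytoene synthase was sought among 1730 named genes by Pearson's r over the 8 group means, a description without a test. PSY3 was followed most closely by ABF2, a bZIP factor that binds abscisic acid response elements (r = 0.987), FTSH6, a plastid protease (0.985), PP2C09, a protein phosphatase (0.982), GT43G, a glycosyltransferase (0.980), and HOX24, a homeodomain factor (0.979). In the Vandana control and under Vandana drought their means were 8.99 and 10.70 for ABF2, 7.49 and 9.65 for PP2C09 and 5.05 and 11.37 for HOX24. The IR64 control stood at 10.80, 9.64 and 10.61, so that each of these had the drought level of Vandana or nearly so in unstressed IR64. The genes were chosen on these same group means, so their drought changes, from 1.45 for GT43G to 6.31 for HOX24 in Vandana and from -0.11 to 0.74 in IR64, describe the choice and are no separate result.

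**Figure D4:**
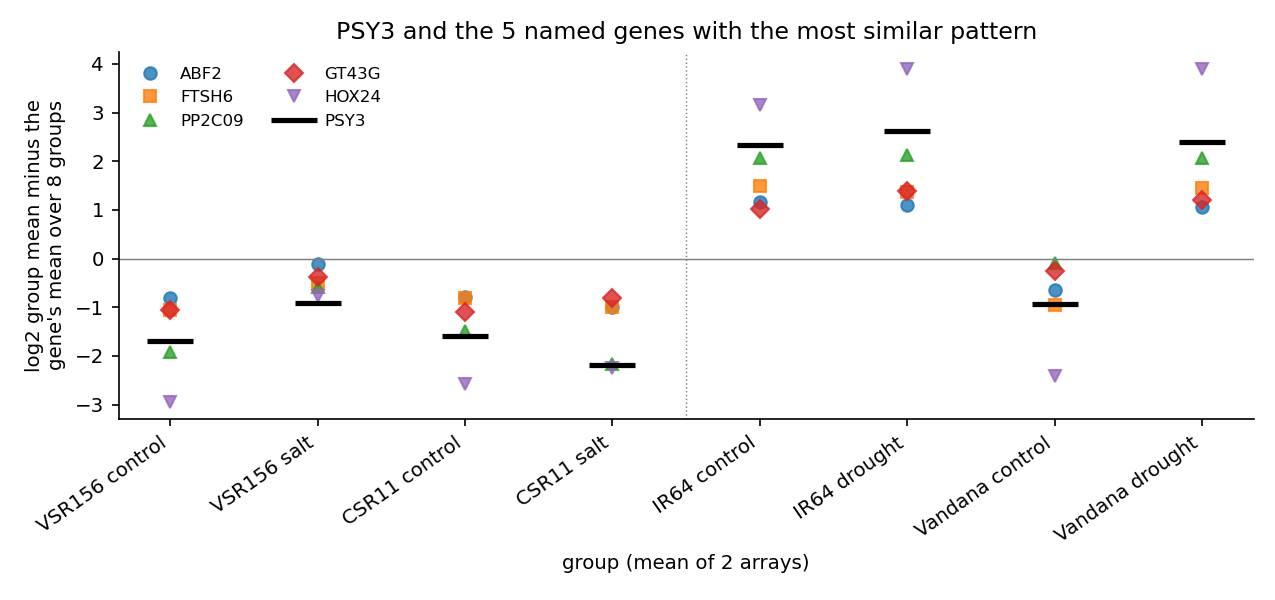
Group means (2 arrays each, log2 scale, minus each gene's mean over the 8 groups) of PSY3 (black bars) and of the 5 named genes with the most similar pattern. In the drought experiment the Vandana control is the group that stands apart for all 6 genes, and the salt groups lie below 0.

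PSY1 had ZEP as its nearest gene (r = 0.994), 1 of only 2 measured genes of the steps after phytoene. Next were SSII-1, a starch synthase (0.991), TLP14, a Tubby-like protein (0.986), GLUA-2, a glutelin (0.985), and GOS5 (0.982). ZEP read 8.95 and 8.80 in the IR64 and Vandana controls, 7.43 and 7.37 in the VSR156 and CSR11 controls, and 6.64 and 6.21 in VSR156 and CSR11 salt, so it was highest in the drought experiment and lowest under salt, like PSY1. PSY2 was followed by MUB1, a membrane-anchored ubiquitin-fold protein (0.976), E37 (0.975), BGLU36, a beta-glucosidase (0.960), CBL4, a calcium sensor (0.949), and C3H12, a zinc finger protein (0.947). MUB1 fell under drought, by 1.01 log2 units in IR64 and 1.15 in Vandana, and was at -0.81 in VSR156 and -0.17 in CSR11. The genes set beside PSY1 and PSY2 were also chosen on these group means. Their levels and changes given here describe the choice and are no separate result. Among the phytoene synthases themselves r was 0.85 between PSY1 and PSY2, 0.79 between PSY1 and PSY3 and 0.49 between PSY2 and PSY3, over means from both experiments, whose varieties and arrays differ.

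**Figure D5:**
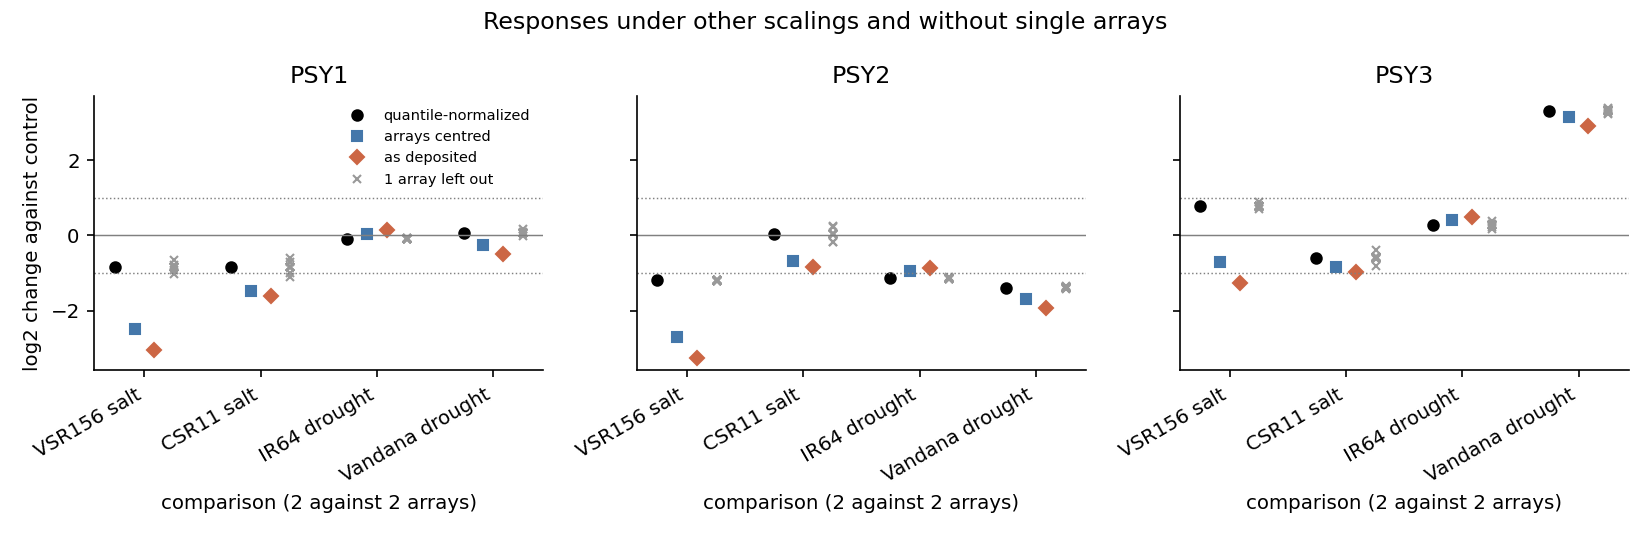
Log2 change of PSY1, PSY2 and PSY3 in each stress comparison (2 against 2 arrays) after quantile normalization, with arrays centred on their median, with values as deposited, and with each of the 16 arrays left out in turn. The PSY3 change in Vandana stays between 2.90 and 3.39, whereas PSY1 and PSY2 in VSR156 move to -2.50 or lower and PSY3 in VSR156 changes sign under the other scalings.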

How the data were processed

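Members and gene lists were chosen with earlier results of these data known. The authors deposited 1 linear intensity per probe set and array, made with GCOS 1.0 per the submitters' processing notes, while the paper's methods name RMA and the removal of absent calls. The values show no common level and come without calls. After 187 control probe sets were removed, 57194 were quantile-normalized and 16 was added before log2. Names came from the array's annotation, which gives exactly 1 gene for 22436 probe sets, and from RefSeq synonyms. A linear model with a mean per group was fitted to all arrays in limma 3.58.1 (R 4.3.3) (residual degrees of freedom 8, prior 2.94), and the spread was pooled over groups. Interactions needed only the adjusted p. Named genes were all PSY probe sets, listed genes called under a stress (at most 4 per list and comparison) with NCED and PDS, and the 5 named genes with the highest r per PSY gene, of mean log2 above the median and range of at least 1. Beyond this rule, HDR, CCD7, CCD8A and the markers are given to complete their lists. The symbols ISPH for HDR and MCSU3 for ABA3 were added once the annotation was read. Same-lettered arrays of a variety correlated at r between -0.027 and 0.012 after removal of group means, so no shift common to a letter was seen. With 2 arrays per group this cannot show whether the letters mark shared plants or batches. Sequence features were not analysed here. The code was checked on simulated data, and only 2 arrays per group limit the precision.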

Additional observations from a re-analysis of the deposited data

Results flagged for a closer look

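After quantile normalization the interaction tests called the following differences between varieties, each with the limits given beside it. For PSY2 the salt response of VSR156 was below that of CSR11 by 1.22 log2 units (-1.22, adjusted p = 0.00576 from limma), with both salt arrays below both controls in VSR156 and the groups overlapping in CSR11. That call was kept in only 3 of 7 other settings, not counting those that left out arrays. For PSY3 the salt responses were apart by 1.37 (adjusted p = 0.00265), a difference of small values on both sides whose sign followed the scaling of the arrays. For PSY3 the drought response of IR64 was below that of Vandana by 3.05 log2 units (-3.05, adjusted p = 4.33e-06), and the unstressed varieties differed by 3.28. This difference rests on the labels of the drought experiment, whose correctness was not tested. With the controls exchanged, PSY3 was at 0.05 in Vandana drought and at 3.55 in IR64 drought.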

How the results depend on the processing

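The rise of PSY3 in Vandana, at 3.33, was called under each scaling, pseudocount and sample choice tried, from 2.82 with a pseudocount of 64 to 3.55 with a pseudocount of 1, but was 0.049 against the control of IR64, while PSY3 in IR64 became 3.55 against the control of Vandana. With values as deposited, PSY1 in VSR156 was called at -3.05, PSY3 in VSR156 turned to -1.27 and the difference of its salt responses to -0.28, and calls were lost for PSY2 in IR64 (-0.86), PSY2 in Vandana (-1.94), the PSY2 salt difference (-2.43) and the PSY3 drought difference (-2.40). With arrays centred, PSY1 in VSR156 was called at -2.50, PSY3 in VSR156 turned to -0.72, and calls were lost for PSY2 in IR64 (-0.94), PSY2 in Vandana (-1.68) and the salt differences of PSY2 (-2.03) and PSY3 (0.12). The median over all probe sets moved to -0.53 in VSR156, -0.16 in CSR11, 0.07 in IR64 and -0.16 in Vandana with values as deposited. In VSR156 13015 of all 57194 probe sets were called down with values as deposited and 9664 with arrays centred, against 2528 after quantile normalization. A pseudocount of 1 took the PSY2 salt difference to -1.33 (adjusted p = 0.0642) and one of 64 took PSY2 in VSR156 to -0.96. The salt experiment alone gave -1.10 and 1.17 for the PSY2 and PSY3 salt differences, without a call. The cause was not tested. By the methods' t-test at p under 0.05, 1 PSY probe set was counted in VSR156 and 0 in CSR11, against 2 and 1 with limma. In IR64 and Vandana it counted 1 and 2, as limma did. Over all 57194 probe sets it counted 1248 up and 1397 down in VSR156, 372 and 465 in CSR11, 1488 and 1986 in IR64, and 2342 and 2789 in Vandana. After Benjamini-Hochberg it counted 0 of all probe sets in each of the 4 comparisons, so its 0 for PSY says nothing about these genes.

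With 1 array left out, PSY1 ran from -1.02 to -0.65 in VSR156 and from -1.10 to -0.59 in CSR11, each called without 1 salt array. No other call of a gene's brightest probe set changed. With the letter as a replicate block within each variety, PSY2 in VSR156 stayed at -1.20 (adjusted p = 0.00119) and PSY3 in Vandana at 3.33 (adjusted p = 1.8e-05), and of the calls of the 5 PSY probe sets only that of the third PSY1 probe set in CSR11 was lost, at 1.12 (adjusted p = 0.0767). The listed pathway genes were not refitted with the block. Over all alternatives, of 754 values of PSY probe sets and their differences, 25 lost a call and 5 gained one. In sign 35 changed, 32 of them called on neither side, such as PSY2 in CSR11, and the other 3 being those of PSY3 given above.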
